A study of Mus musculus with 14 samples.

Results

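The enzymes and regulators that build cholesterol and fatty acids were followed as 32 named genes, listed by their function, with earlier results of these data known. Of the 32 genes, 31 were measured among 18820 genes in all. No probe set was annotated to Acat2, the acetyl-CoA acetyltransferase at the entry of the pathway, alone, and it was not analysed here. RNA had been hybridised to Affymetrix Mouse Gene ST 1.1 arrays, 1 per sample, and levels are log2 values after RMA, a background correction and summary of probes, so that a difference of 1 is 2-fold. All 14 samples came from mouse organoids that were labelled Cdx2-/fl or derived from such organoids, with 1 null and 1 floxed allele of the intestinal homeobox gene Cdx2, and carried Lgr5-EGFP-Ires-CreERT2, a knock-in that marks stem cells and drives Cre in the same cells. Sorted Lgr5-EGFP-high stem cells (SCs) made up 7 samples, namely control SI SCs from small intestine (n = 3), control Sto SCs from stomach (n = 2) and Cdx2null SI SCs (n = 2). The Cdx2null SI SCs came from small intestinal organoids treated with 4-hydroxytamoxifen, which removed the floxed allele, whereas the controls were not treated. Loss of Cdx2 and exposure to the drug cannot be told apart in this design. Per the paper, the sorted SCs it compared had been cultured in Sto med, the stomach medium. Sto med holds Wnt, Fgf10 and gastrin beside the Egf, Noggin and R-spondin of SI med. The other 7 samples were whole, unsorted Cdx2-/fl organoids, in SI med (n = 3 from small intestine, n = 2 from stomach) or Sto med (n = 1 of each origin). Nothing states that replicates came from separate animals, so p-values measure the spread between these arrays, which may be technical. The control SI SCs are an exception in part, since sex-linked genes differed between their arrays, which thus did not all come from 1 animal. The mice were adults of both sexes on a mixed C57Bl6j/CBA background. Since these are bulk samples, fewer cells of a type and less RNA per cell cannot be told apart, and the small number of arrays limits the precision.

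Cholesterol is made from acetyl-CoA through mevalonate, squalene and lanosterol, and palmitate is made from the same acetyl-CoA by acetyl-CoA carboxylase and fatty acid synthase, then elongated and desaturated. Both branches are switched on by the SREBP transcription factors, which SCAP carries from the endoplasmic reticulum to the Golgi for cleavage, while INSIG proteins hold SCAP back when sterols are plentiful. The intestinal epithelium takes up sterol from the diet and also makes it, with much of the synthesis in crypts.

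Promoter sequence is shown for 4 genes that stand for the enzymes and the brakes of the system, all of which were higher in 1 group of organoids, Sto organoids in SI med, than on any other array. Windows before the transcription start were read from the RefSeq promoter table of GRCm38.p6, which held 25 of the 32 genes. Insig1 was taken from chr5:28071162-28071411, plus strand. Hmgcs1 was taken from chr13:119690101-119690350, plus strand, and Sc5d from chr9:42264301-42264550, minus strand. For Insig2, with several listed starts, the 177 bases shown lie outside the whole gene (chr1:121332663-121332839, minus strand). Capitals mark matches, on either strand, to the sterol regulatory element TCACNCCAC bound by SREBPs, to the CCAAT box or to the E-box CACGTG, and none of the 3 marked motifs overlaps another in these windows. Each sequence runs 5′ to 3′ on the strand of its gene:
Hmgcs1: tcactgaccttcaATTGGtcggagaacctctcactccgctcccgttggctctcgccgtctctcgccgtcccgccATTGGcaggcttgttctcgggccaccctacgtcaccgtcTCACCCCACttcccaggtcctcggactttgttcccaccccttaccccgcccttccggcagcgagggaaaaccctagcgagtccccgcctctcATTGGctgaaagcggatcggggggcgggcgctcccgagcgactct
Insig1: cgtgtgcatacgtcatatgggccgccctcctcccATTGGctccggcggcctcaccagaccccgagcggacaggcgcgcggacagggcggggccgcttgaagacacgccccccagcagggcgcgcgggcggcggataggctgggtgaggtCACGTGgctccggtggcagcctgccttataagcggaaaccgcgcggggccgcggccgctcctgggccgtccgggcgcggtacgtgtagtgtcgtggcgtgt
Insig2: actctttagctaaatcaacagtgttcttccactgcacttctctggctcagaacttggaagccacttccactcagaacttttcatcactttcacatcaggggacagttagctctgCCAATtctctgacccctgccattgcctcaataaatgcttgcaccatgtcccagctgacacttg
Sc5d: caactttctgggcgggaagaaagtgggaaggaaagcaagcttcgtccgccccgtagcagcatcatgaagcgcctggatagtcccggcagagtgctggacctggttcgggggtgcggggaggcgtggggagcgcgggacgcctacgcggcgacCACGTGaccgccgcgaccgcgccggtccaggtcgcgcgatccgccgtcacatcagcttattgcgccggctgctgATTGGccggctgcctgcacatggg
Within the 250 bases before the start, the sterol regulatory element as spelled matched in 1 of the 25 genes, Hmgcs1, at 137 to 129 bases before the start, against 1.22% of 27025 genes in the table. CCAAT matched in 19 of the 25 genes, or 76%, against 37.5% of all genes. The E-box matched in Dhcr7, Hsd17b7, Insig1, Sc5d and Scap, 5 of 25, or 20%, against 6.86% of all genes. A match is a description of letters and not a bound site, and genes with several listed starts had several windows.

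The sorted SCs and the organoids were first checked against defining markers. Lgr5, the Wnt target that marks these stem cells, lay at 10.77 to 11.56 on the 7 SC arrays. It measured 4.20 and 4.32 in Sto organoids in SI med, below the median of all probe sets on those arrays, and 9.29 to 10.28 on the other 5 organoid arrays. Cdx2 ranged from 8.94 to 10.05 in the 3 control SI SC arrays and was 4.67 and 5.08 in stomach SCs. Of the 2 Cdx2null arrays, replicate 1 had Cdx2 at 8.41 and replicate 2 at 4.88, while both had the intestinal mucin Muc13 low, at 3.73 and 3.30, against 8.69 to 10.07 in control SI SCs. Per the methods, the Cdx2 probes also cover exons that remain after recombination, so this level is an incomplete check of the deletion. Both Cdx2null arrays were read with the same probes, and why only replicate 1 was high was not tested. The library labelled SI organoids in SI med 1 went against its label, with Cdx2 at 5.52, Muc13 at 3.57 and the gastric peptide Tff2 at 11.39, against 9.67 to 9.92, 11.13 to 11.34 and 5.78 to 8.80 on the other 2 arrays of its group. SI organoids in SI med 3 and control SI SCs 3 had been exported differently, as the log2 of signals rounded to 1 decimal, with upper quartiles of 7.57 and 7.50 against 7.79 to 7.90 on the other arrays. By sex-linked genes, 3 arrays were male (control SI SCs 1 and 3 and Sto organoids in Sto med) and 11 female, and among the genes followed here Nsdhl and Ebp are X-linked. Control SI SCs 2 was thus the only female array of its group, while the Cdx2null and Sto SCs were all female. In the SC comparisons a term for sex therefore sets those cells against control SI SCs 2 alone. For several comparisons results are also given without arrays named here.

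All 31 genes lay above the array median in every sample. The lowest value of any of them was 7.46, for Acaca in Sto organoids in SI med 1, against array medians of 4.72 to 5.05. Over the 14 arrays 23 genes varied by more than 1 on the log2 scale and 3 by more than 2, namely Fads1 (8.93 to 11.75), Insig2 (8.02 to 10.57) and Elovl6 (8.77 to 10.91). The smallest range was 0.70, for Srebf1, which encodes the SREBP of lipogenesis, and for Idi1, the isopentenyl diphosphate isomerase. Srebf2, which encodes the SREBP of sterol synthesis, ranged over 0.93, and over 0.44 without the 2 arrays that had been exported differently. The 2 arrays that had been exported differently held the lowest value of 21 of the 31 genes.

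**Figure D1:**
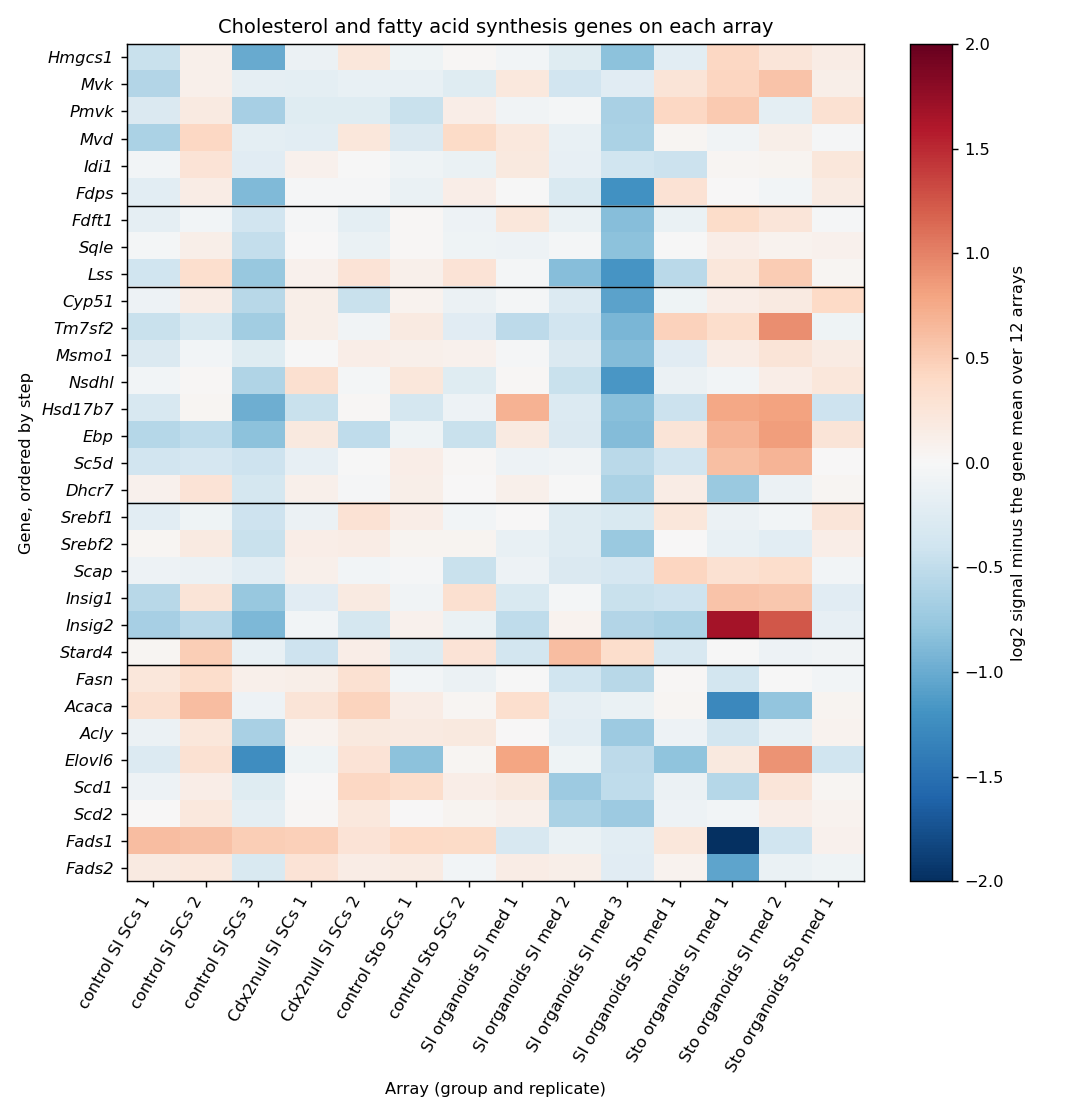
Heat map of the 31 genes (rows, ordered by step, black lines between steps) on the 14 arrays (columns). Colour gives the log2 signal minus the gene's mean over the 12 arrays with unrounded values, from blue (lower) to red (higher), cut at 2 in either direction. Insig2 is highest and Fads1 and Acaca lowest in Sto organoids in SI med, and SI organoids in SI med 3 and control SI SCs 3 are low for most genes.

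As a group, the 31 genes moved little between samples apart from those 2 arrays. Their median deviation from the 12-array mean was -0.41 in control SI SCs 3 and -0.64 in SI organoids in SI med 3, where other genes of that brightness (5133 genes) deviated by -0.40 and -0.44. On the remaining 12 arrays it lay between -0.24 (SI organoids in SI med 2) and 0.15 (control SI SCs 2). In Sto organoids in SI med the 17 sterol enzymes deviated by 0.23 and 0.24 and the 8 fatty acid enzymes by -0.47 and -0.07. The opposite order was seen on other arrays, with -0.29 for the sterol and 0.09 for the fatty acid enzymes in control SI SCs 1 and -0.02 and 0.27 in Cdx2null SI SCs 2.

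**Figure D2:**
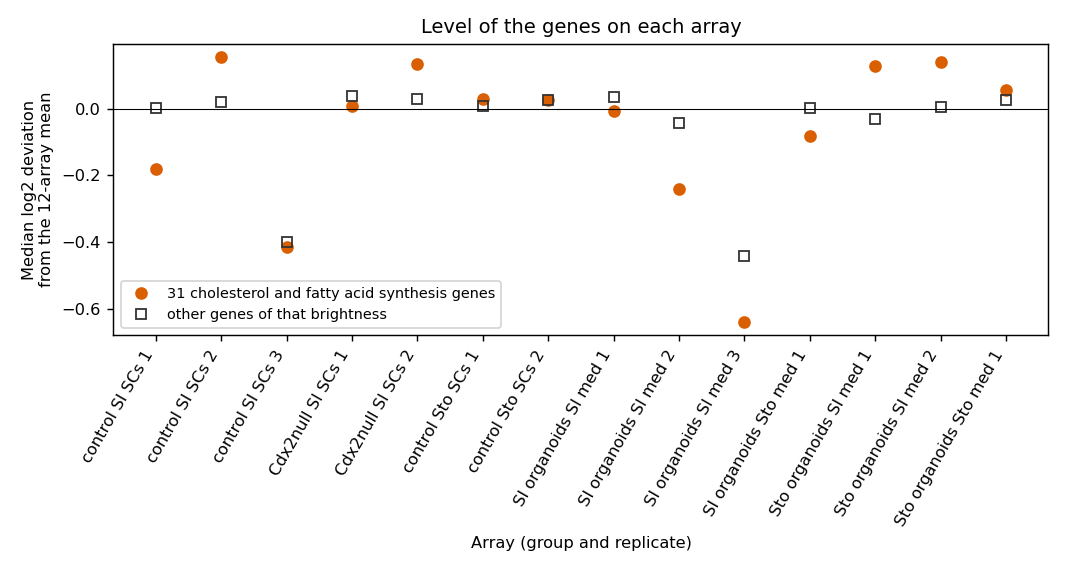
Median deviation (log2) from the mean of the 12 arrays with unrounded values, for the 31 cholesterol and fatty acid synthesis genes (filled circles) and for 5133 other genes of that brightness (open squares), by array. The 2 arrays that had been exported differently lie at -0.41 and -0.64 for the 31 genes and at -0.40 and -0.44 for the other genes.

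Whether loss of Cdx2 changed lipid synthesis in intestinal stem cells was the question put to the Cdx2null and control SI SCs. None of the 31 genes passed the test, and the differences were small. They ran from -0.27 for Stard4, a carrier of sterol between membranes, to 0.51 for Tm7sf2, a sterol reductase that acts after lanosterol. By limma with Benjamini-Hochberg adjustment over 18820 genes, 0 of 31 had an adjusted p under 0.05 with at least a 2-fold difference, against 1.52% of all genes, and 0 at an adjusted p under 0.05 alone, against 1.59%. At an unadjusted p under 0.05 there were 2 genes, Insig2 and Tm7sf2, against 11.6% of all genes. For 26 of the 31 genes the 95% interval of the difference lay within 2-fold in both directions.

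Within the steps, the 6 genes of the mevalonate pathway had a median difference of 0.09, the 3 of squalene and lanosterol 0.10, the 8 from lanosterol to cholesterol 0.27 and the 5 of the SREBP system 0.33. The 8 fatty acid genes had a median of 0.15. Differences lay above 0 for 28 of the 31 genes, against 54.4% of all genes, with a median of 0.21 against 0.03 over all genes and 0.15 over genes of that brightness. This one-sidedness rested on control SI SCs 3, 1 of the arrays that had been exported differently. Without it 21 of 31 lay above 0, against 48.8% of all genes, and the median was 0.06. With a further quantile normalisation 20 lay above 0, against 45.6% of all genes. With arrays centred on their medians it was 19, against 36.2%, and with a term for sex 9 (median -0.14), against 52.7%. Without the library labelled Cdx2null SI SCs 1, 27 of 31 lay above 0 and 0 passed the test.

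Insig2, a brake on SREBP processing, measured 8.26, 8.37 and 8.02 in control SI SCs, with 8.87 and 8.57 in Cdx2null SI SCs, so that the groups did not overlap. The difference was 0.50 (SE 0.18, adjusted p 0.306 by limma). Tm7sf2 was at 8.63, 8.77 and 8.39 against 9.20 and 9.02, again without overlap (0.51, SE 0.19, adjusted p 0.344). Hmgcs1, the cytosolic HMG-CoA synthase, was at 10.28, 10.81 and 9.72 against 10.60 and 10.95, with overlap (0.51, SE 0.31). Stard4 measured 8.85, 9.30 and 8.66 in control SI SCs, with 8.39 and 8.94 in Cdx2null SI SCs (-0.27, SE 0.27), overlapping. Fads1, the delta-5 desaturase of polyunsaturated fatty acids, was at 11.75, 11.71 and 11.62 against 11.60 and 11.39, below all 3 controls on both arrays (-0.20, SE 0.14, adjusted p 0.698). Fasn, the fatty acid synthase, was at 11.03, 11.16 and 10.91 against 10.93 and 11.11, and its difference of -0.01 had a 95% interval from -0.35 to 0.33.

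**Figure D3:**
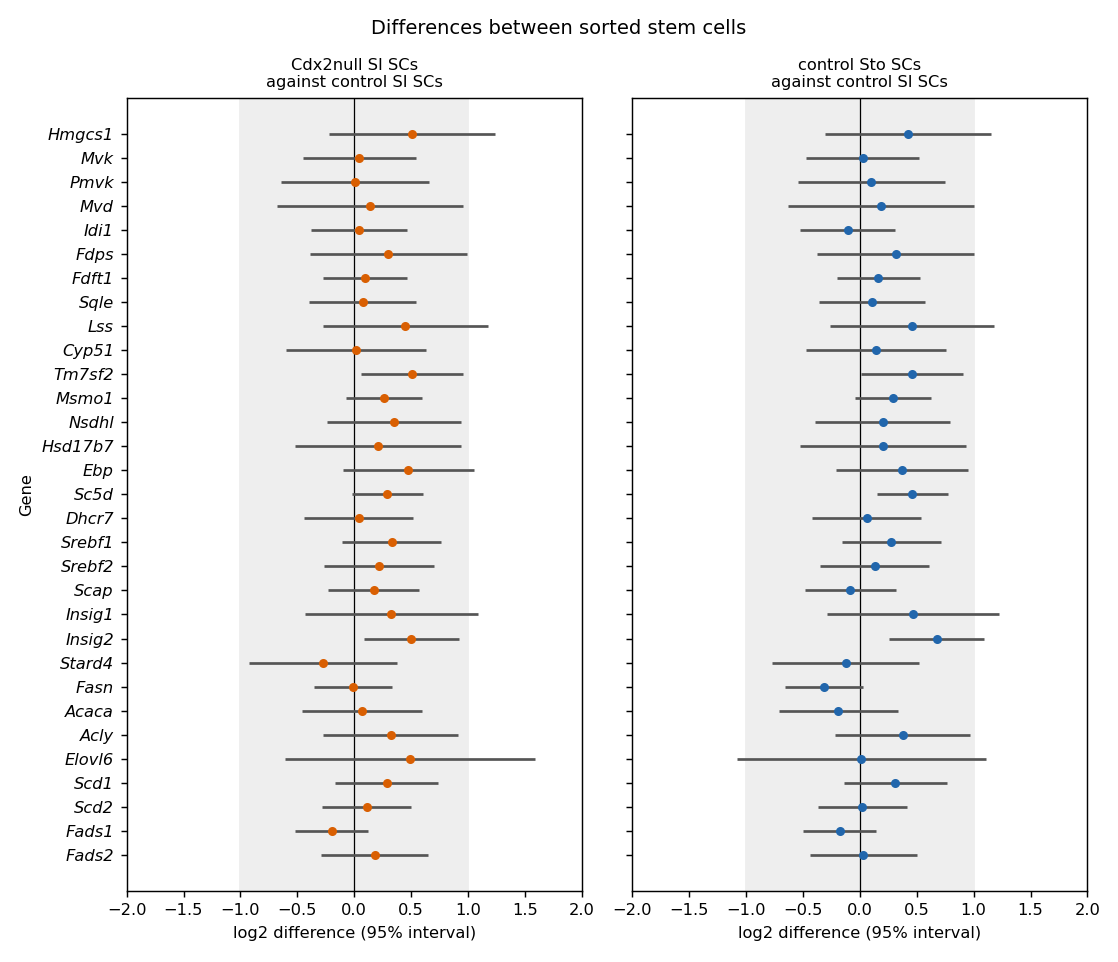
Log2 differences (points) with 95% intervals from limma (lines) for the 31 genes, Cdx2null SI SCs (n = 2, left) and control Sto SCs (n = 2, right) against control SI SCs (n = 3). The grey band marks differences within 2-fold. Both panels share the control SI SCs, and 26 and 24 intervals lie wholly inside the band.

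Control Sto SCs were compared with control SI SCs to ask how the stem cells of the 2 organs differ. Here too none of the 31 genes passed the test, although gastric and intestinal markers separated the organs, with 6 of 6 gastric markers called higher and 5 of 6 intestinal markers called lower in the stomach. The limma fit called 0 of 31, against 2.86% of all genes, and 0 at an adjusted p under 0.05 alone, against 3.35%. At an unadjusted p under 0.05 there were 3, Insig2, Sc5d and Tm7sf2, against 15.6% of all genes. Differences lay above 0 for 25 of 31 genes, with a median of 0.16 against 0.03 over all genes and 0.13 over genes of that brightness. Without control SI SCs 3 that became 16 of 31 and a median of 0.01, with 51.1% of all genes above 0.

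Insig2 had the largest difference, 0.68 (SE 0.18, adjusted p 0.105 by limma), with 9.001 and 8.78 in control Sto SCs, above all 3 control SI SCs. Sc5d, the sterol C5-desaturase, measured 9.53, 9.59 and 9.51 in control SI SCs, with 10.06 and 9.95 in control Sto SCs, without overlap (0.46, SE 0.13, adjusted p 0.135). Insig1, the other SREBP brake and itself an SREBP target, spread from 10.22 to 11.23 (10.41, 11.23 and 10.22) in control SI SCs and overlapped the 10.89 and 11.28 of control Sto SCs (0.47, SE 0.32). On the other side Fasn was at 10.75 and 10.69, below the 3 control SI SCs (-0.31, SE 0.14, adjusted p 0.373). Acaca, the acetyl-CoA carboxylase that makes malonyl-CoA, was at 9.07, 9.37 and 8.64 against 8.89 and 8.78 (-0.19, SE 0.22), with overlap. Fads1 was at 11.53 and 11.51 against 11.62 to 11.75 (-0.18, SE 0.14).

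Set directly against control Sto SCs, Cdx2null SI SCs differed by -0.17 (Insig2) to 0.48 (Elovl6), with 15 of 31 genes above 0 and a median of -0.01. The limma fit called 0 of 31 and 0 of all genes (0%), and at an unadjusted p under 0.05 there were 0 of 31 and 286 of all genes (1.52%), For 30 of 31 genes the 95% interval lay within 2-fold. Sc5d lay at 9.76 and 9.91 in Cdx2null SI SCs, above the intestinal and below the stomach controls. Fasn differed by 0.30 (SE 0.16), Acaca, at 9.01 and 9.18, by 0.26 (SE 0.24), and Stard4, at 8.55 and 9.07 in control Sto SCs, by -0.15 (SE 0.30). Elovl6, the elongase of palmitate, was at 9.92 and 10.28 against 9.19 and 10.06 (0.48, SE 0.51), with overlap.

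Among organoids the clearest picture was that of Sto organoids in SI med, which per the paper is also the medium that lets stomach organoids differentiate. In these samples Lgr5 was near background. Their Insig2 was at 10.57 and 10.15, and on the other 12 arrays it did not exceed 9.001. Both arrays lay above all other 12 for 8 of the 31 genes (Ebp, Fdft1, Hmgcs1, Hsd17b7, Insig1, Insig2, Mvk and Sc5d), against 11.2% of all genes. Both lay below all others for 2, Acaca and Fads1, against 8.26% of all genes. The summed signal of 5 proliferation genes was at 10.58 and 10.99 (log2) on these 2 arrays against 12.53 to 13.35 on the others. Paneth markers were lowest there, at 6.16 and 6.57 against 8.88 to 13.19. Summed signal was highest there for goblet markers (13.01 and 13.16 against 9.53 to 12.87) and gastric markers (14.60 and 14.64 against 7.14 to 14.34). It was also highest for the adipocyte list (8.86 and 8.21 against 6.05 to 8.16), of which 1 of 4 genes was above the array median. On these arrays 2 of 3 goblet and 5 of 6 gastric genes were above the array median, so a sum need not hold for each gene. All 3 goblet genes were above it in SI organoids in SI med 2 and 3. The part of these markers in the levels of the synthesis genes was not tested.

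Insig2 was at 8.40, 8.99 and 8.33 in SI organoids in SI med, at 8.28 in SI organoids in Sto med and at 8.75 in Sto organoids in Sto med. The same order held for Insig1, with 11.53 and 11.51 in Sto organoids in SI med against 10.67, 10.93 and 10.53, 10.55 and 10.74 in those groups. Sc5d measured 10.52 and 10.60 in Sto organoids in SI med, against 9.82, 9.84 and 9.39 in SI organoids in SI med, 9.53 in SI organoids in Sto med and 9.92 in Sto organoids in Sto med. All 3 genes were thus higher in stomach organoids without the added factors than in any other sample. Acaca went the other way, with 7.46 and 7.95 in Sto organoids in SI med against 9.07, 8.56 and 8.61 in SI organoids in SI med, 8.78 in SI organoids in Sto med and 8.80 in Sto organoids in Sto med. Fads1 measured 8.93 and 10.73 in Sto organoids in SI med, 10.81, 10.999 and 10.91 in SI organoids in SI med, 11.35 in SI organoids in Sto med and 11.22 in Sto organoids in Sto med. The 2 arrays of Sto organoids in SI med differed from each other by more than the other organoids did for this gene, and Fads2, the delta-6 desaturase, followed with 10.41 and 11.34 against 11.23 to 11.62 on the other 5 organoid arrays.

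**Figure D4:**
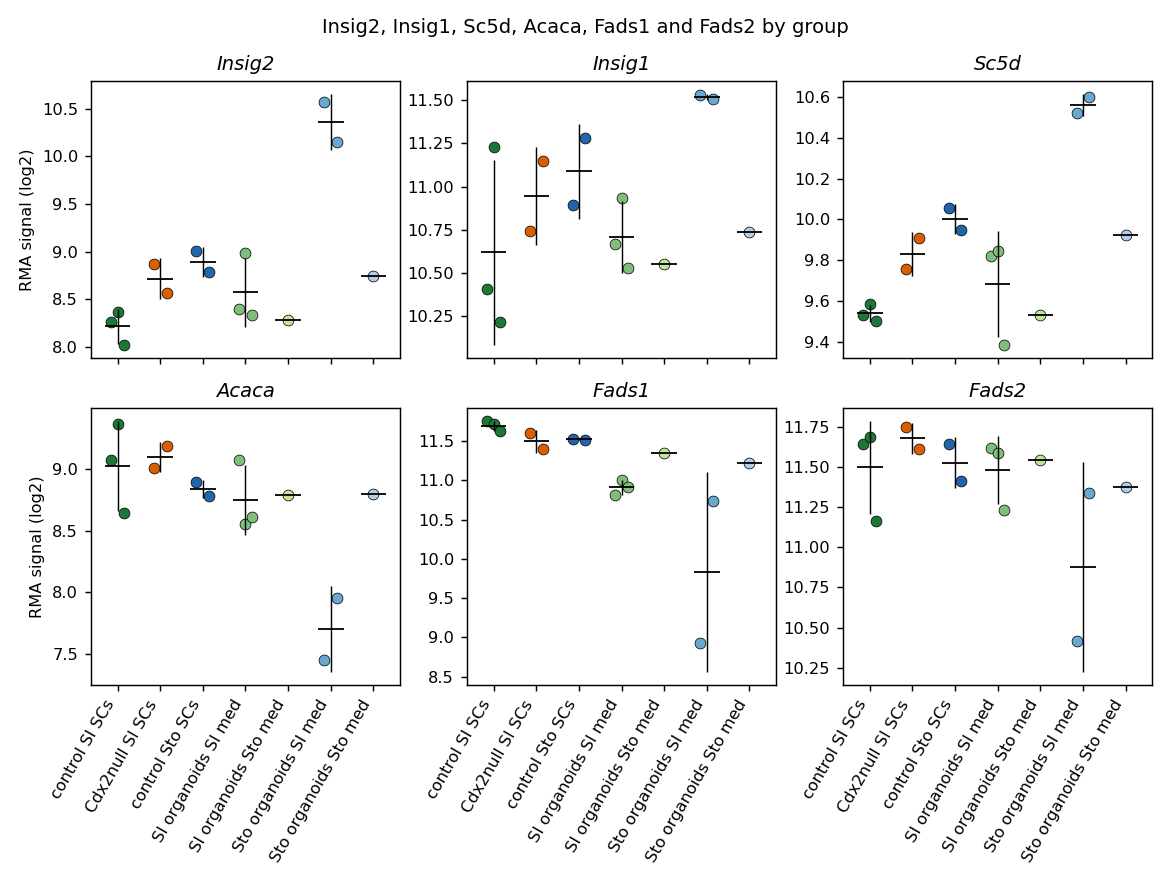
RMA signal (log2) of Insig2, Insig1, Sc5d, Acaca, Fads1 and Fads2 on every array by group. Points are arrays, horizontal bars group means and vertical bars the SD where a group has more than 1 array, and each panel has its own axis, which does not start at 0. Sto organoids in SI med lie above every other array for Insig2, Insig1 and Sc5d and below every other array for Acaca and Fads1.

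The comparison of origin in organoids, Sto against SI with medium as a second term, gave no call in the fit of the 7 organoid arrays. By limma 0 of 31 and 0 of all genes (0%) were called, with 6 of the 31 at an unadjusted p under 0.05 against 2595 of all genes (13.8%). Insig2 was higher by 1.40 (SE 0.32, 95% interval 0.60 to 2.20, adjusted p 0.262), and Lss, the lanosterol synthase, by 0.92 (SE 0.30, adjusted p 0.303). Lss was at 10.36, 9.54 and 9.21 in SI organoids in SI med and 9.85 in Sto med, against 10.62 and 10.90 in Sto organoids in SI med and 10.43 in Sto med, without overlap between the origins. Ebp, the sterol isomerase, differed by 0.76 (SE 0.33). It was at 9.54, 9.07 and 8.50 in SI organoids in SI med and 9.62 in Sto med, against 10.04, 10.19 and 9.61, with 9.61 and 9.62 side by side. Fads1 differed by -0.80 (SE 0.45), Acaca by -0.73 (SE 0.28) and Fads2, at 11.54 in SI organoids and 11.38 in Sto organoids in Sto med, by -0.47 (SE 0.26). Of the 8 genes from lanosterol to cholesterol 7 lay above 0, with a median of 0.62, and of the 8 fatty acid genes 5, with a median of 0.08.

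The calls on origin depended on the arrays and on the contrast. Taken within SI med alone, on the same 7 organoid arrays, Insig2 was 1.79 higher (adjusted p 0.0642), and 0 of the 31 but 266 of all genes were called. Without the library labelled SI organoids in SI med 1, the comparison over both media called 371 of all genes and 0 of the 31, with 13 of these at an unadjusted p under 0.05. With all 14 arrays in 1 fit, which changes the estimate of spread as well as comparing the origins in SI med, 3 of the 31 genes were called, against 6.1% of all genes. Insig2 was higher in Sto organoids by 1.79 (adjusted p 0.00207) and Tm7sf2 by 1.25 (adjusted p 0.0120), and Acaca was lower, at -1.04 (adjusted p 0.0334). Sc5d also had an adjusted p under 0.05 there (0.88, adjusted p 0.00965), so 4 of 31 did against 8.16% of all genes. The fit over both media, with medium as a second term, was also run without SI organoids in SI med 1 and the rounded array of that group. On the 5 organoid arrays left the differences were 0.99 for Insig2, 0.58 for Sc5d, 0.35 for Tm7sf2 and -0.48 for Acaca, none with an adjusted p under 0.05. This is not the contrast within SI med. For Insig2 it compares with the 1.40 over both media and not with the 1.79 within SI med.

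Medium was compared over both origins, Sto med against SI med. By limma 0 of 31 and 0 of all genes (0%) were called, and at an unadjusted p under 0.05 there were 2 of 31, Insig2 and Srebf1, against 1816 of all genes (9.65%). Sto med holds 1 array of each origin. Sto organoids in Sto med was the only male organoid array, so within Sto organoids medium and sex cannot be told apart. A term for sex leaves the medium contrast to SI organoids alone. Insig2 differed by -0.92 (SE 0.36, adjusted p 0.501), Elovl6 by -0.90 (SE 0.38, adjusted p 0.532) and Hsd17b7, a ketosteroid reductase of the pathway, by -0.72 (SE 0.43). On the upper side Fads1 differed by 0.89 (SE 0.49), Acaca by 0.53 (SE 0.30) and Fdps, the farnesyl diphosphate synthase, by 0.51 (SE 0.35). Within Sto organoids the difference for Insig2 was -1.62 (SE 0.37, adjusted p 0.216) and within SI organoids -0.30 (SE 0.35, adjusted p 0.999). For Acaca these were 1.09 (SE 0.34) and 0.04 (SE 0.32). Over both origins 21 of the 31 genes lay above 0, against 50.8% of all genes. Without the library labelled SI organoids in SI med 1 it was 25, against 52.6%. Without the rounded array of that group it was 17, against 47.8%.

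Elovl6 was at 10.80, 9.93 and 9.50 in SI organoids in SI med and 9.21 in Sto med, and at 10.21 and 10.91 in Sto organoids in SI med and 9.62 in Sto med. Each Sto med array lay below all SI med arrays of its own origin. Hsd17b7 was at 10.27, 9.31 and 8.75 and then 9.15 in SI organoids, and at 10.36 and 10.38 and then 9.16 in Sto organoids, so that it separated the media in Sto organoids and not in SI organoids. Fdps was at 10.76, 10.47 and 9.57 in SI organoids in SI med and 11.06 in Sto med, and at 10.78 and 10.71 in Sto organoids in SI med and 10.94 in Sto med, above its origin's SI med arrays in both.

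Whether medium acted differently in the 2 origins was tested as a difference of differences, added after the values were seen. By limma 0 of 31 genes were called, against 0.0106% of all genes, with 3 at an unadjusted p under 0.05 against 6.32% of all genes, and the smallest adjusted p was 0.613. Tm7sf2 had the largest value, -1.79 (SE 0.50, adjusted p 0.614). It was at 8.56, 8.70 and 8.16 in SI organoids in SI med and 9.54 in Sto med, but at 9.43 and 10.01 in Sto organoids in SI med and 8.99 in Sto med, opposite directions in the 2 origins. Insig2 followed with -1.32 (SE 0.51) and Ebp with -1.09 (SE 0.61), and Acaca was at 1.06 (SE 0.47), Fads1 at 0.95 (SE 1.00) and Stard4 at 0.51 (SE 0.60). Stard4 was at 8.43, 9.42 and 9.16 in SI organoids in SI med, 8.48 in SI organoids in Sto med, 8.81 and 8.70 in Sto organoids in SI med and 8.74 in Sto organoids in Sto med. The 95% interval lay within 2-fold for only 1 of the 31 genes in this comparison. Since the lone array of Sto organoids in Sto med was male, medium and sex cannot be told apart in Sto organoids here either. No term for sex could be fitted.

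Sorted control SCs against control organoids in SI med, averaged over the origins, was the comparison in which some of the 31 genes passed the test. The share that passed was close to that of all genes. Fads1 was higher in the SCs by 1.24 (SE 0.28, 2.36-fold, adjusted p 0.0273 by limma) and Acaca by 0.71 (SE 0.17, 1.63-fold, adjusted p 0.0385), whereas Insig2 was lower, at -0.91 (SE 0.16, 1.89-fold, adjusted p 0.00953). Of these only Fads1 exceeded 2-fold, so 1 of 31 genes was called, against 3.99% of all genes, and 3 of 31 had an adjusted p under 0.05, against 8.42%. At an unadjusted p under 0.05 there were 7, against 21.4%. The sorted cells came from Sto med, so sorting and medium cannot be told apart here. Lgr5 and 4 of 5 proliferation genes were called higher in the SCs, and their part in these differences was not tested.

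For Fads1, all 5 control SC arrays lay above all 5 organoid arrays in SI med, at 11.51 to 11.75 against 8.93 to 10.999. Acaca and Insig2 overlapped, since the SI organoid arrays of Acaca (up to 9.07) and of Insig2 (down to 8.33) reached into the range of the SCs. Elovl6 measured 9.74, 10.33 and 8.77 in control SI SCs and differed by -0.70 (SE 0.36). Ebp measured 8.79, 8.85 and 8.53 in control SI SCs, with 9.27 and 8.91 in control Sto SCs, and differed by -0.67 (SE 0.22, adjusted p 0.0983). Scd1, the stearoyl-CoA desaturase, measured 11.42, 11.66 and 11.28 in control SI SCs, with 11.88 and 11.66 in control Sto SCs, against 11.72, 10.81 and 11.02 in SI organoids and 10.96 and 11.77 in Sto organoids in SI med (0.34, SE 0.22), with overlap. Of the 8 fatty acid genes 7 lay above 0, with a median of 0.33, and the medians of the 4 groups of sterol genes lay between -0.23 and 0.03.

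The 3 differences were then taken within each origin. Within stomach they were 1.69 for Fads1 (SE 0.44, adjusted p 0.0493), 1.13 for Acaca (SE 0.27, adjusted p 0.0358) and -1.47 for Insig2 (SE 0.25, adjusted p 0.00861), and all 3 were called, against 6.03% of all genes (7.33% at an adjusted p under 0.05 alone). Within small intestine they were 0.79 (SE 0.36, adjusted p 0.547), 0.28 (SE 0.22, adjusted p 0.819) and -0.36 (SE 0.21, adjusted p 0.689), and 0 were called. Whether the origins differ in this was tested by the interaction term given further on, which passed for none of the 3 genes. Leaving out single arrays took the adjusted p of Fads1 to between 0.000263 and 0.0929, that of Acaca to between 0.0108 and 0.161 and that of Insig2 to between 0.00461 and 0.0508. Without Sto organoids in SI med 1, Fads1 differed by 0.79. Without the 3 arrays in doubt (both rounded arrays and the library labelled SI organoids in SI med 1), Insig2 was at -1.07 (adjusted p 0.00507) Acaca at 0.90 (adjusted p 0.0113), Sc5d at -0.42 (adjusted p 0.0291) and Fads1 at 1.21 (adjusted p 0.0938).

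Against organoids in Sto med, per the paper also the medium of the SCs, none of the 31 genes passed the test. In the limma fit 0 of 31 were called, against 0.0425% of all genes, with 2 at an unadjusted p under 0.05 against 8.82%. Ebp had the largest difference, -0.71 (SE 0.28, adjusted p 0.488), with 9.62 and 9.61 in the 2 organoid arrays above all 5 SC arrays. Pmvk, the phosphomevalonate kinase, measured 7.89, 8.35 and 7.52 in control SI SCs, with 7.74 and 8.31 in control Sto SCs against 8.59 and 8.48 (-0.57, SE 0.29), again without overlap. In SI med Pmvk was at 8.11, 8.13 and 7.52 in SI organoids and at 8.70 and 7.98 in Sto organoids, and in Cdx2null SI SCs at 7.93 and 7.93. Tm7sf2, at 9.26 and 8.85 in control Sto SCs, differed by -0.44 (SE 0.22). Fads1 differed by 0.32 (SE 0.37), Stard4 by 0.26 (SE 0.30) and Lss by 0.21 (SE 0.34). Lss measured 9.99, 10.73 and 9.64 in control SI SCs, 10.50 and 10.66 in control Sto SCs and 10.48 and 10.66 in Cdx2null SI SCs. For 26 of the 31 genes the interval lay within 2-fold, but Sto med had 1 organoid array of each origin.

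The difference between stomach and intestine in SCs was set against that in organoids in SI med by an interaction term. By limma 0 of 31 genes were called, against 0.845% of all genes, with 4 at an unadjusted p under 0.05 against 10% of all genes. These were Acaca, Insig2, Tm7sf2 and Scap, the SREBP escort, whose other probe set lay near background (4.30 to 4.72) and was not used. Insig2 was at -1.11 (SE 0.33, 95% interval -1.85 to -0.38, adjusted p 0.202), Tm7sf2 at -0.79 (SE 0.33) and Hsd17b7 at -0.72 (SE 0.59), so that stomach exceeded intestine by more in organoids than in SCs. Hsd17b7 measured 9.25, 9.61 and 8.59 in control SI SCs, 9.23 and 9.48 in control Sto SCs and 9.13 and 9.60 in Cdx2null SI SCs. Fads1 was at 0.90 (SE 0.56, adjusted p 0.700), Acaca at 0.85 (SE 0.35) and Fads2 at 0.63 (SE 0.39). Fads2 measured 11.64, 11.68 and 11.16 in control SI SCs, 11.64 and 11.41 in control Sto SCs and 11.74 and 11.61 in Cdx2null SI SCs. The value for Fads1 rested on the arrays of Sto organoids in SI med, at 1.80 (adjusted p 0.0140) without Sto organoids in SI med 2 and at -0.00146 without Sto organoids in SI med 1. The interval lay within 2-fold for 4 of 31 genes.

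Among 15 measured genes that handle sterol once it is made, 1 was called in Cdx2null against control SI SCs, against 1.52% of all genes. It was Abca1, the pump that exports cholesterol to apolipoprotein A1. The median difference of the 15 genes was 0.22, and 0.16 in control Sto against control SI SCs, beside 0.21 and 0.16 for the 31 synthesis genes, and the lists were not tested against each other. Abca1 measured 4.20, 4.41 and 4.04 in control SI SCs, below the array medians, and at 5.40 and 6.39 in Cdx2null SI SCs and 6.23 and 5.98 in control Sto SCs. The fitted differences were 1.68 (SE 0.29, adjusted p 0.0459 by limma) and 1.89 (SE 0.29, adjusted p 0.0206), whose size is uncertain because the lower group lay near background. In control Sto SCs 3 genes of the list were called higher, against 2.86% of all genes called in either direction, and 0 lower. They were Abca1, Abcg1 and Mylip, all targets of the sterol-sensing LXR receptors, whose activity was not tested. Abcg1, a second sterol exporter, measured 4.97, 5.36 and 4.87 in control SI SCs, at 5.82 and 7.67 in Cdx2null SI SCs and at 7.85 and 7.69 in control Sto SCs (2.70 for the stomach, SE 0.49, adjusted p 0.0357). Mylip, the ubiquitin ligase that removes lipoprotein receptors, was at 6.17, 5.88 and 5.35, then 7.02 and 8.07, then 7.79 and 7.91 (2.05 for the stomach, SE 0.35, adjusted p 0.0308). The Cdx2null and control Sto SCs lay above all control SI SCs for these 3 genes. The genes were picked by their call in control Sto SCs, so their separation there is no separate result. In Cdx2null SI SCs Abcg1 and Mylip were not called. Leaving out single arrays ended most of these calls. The adjusted p of Abca1 in Cdx2null SI SCs then ran from 0.0134 to 0.151 and in control Sto SCs from 0.0440 to 0.140, that of Abcg1 from 0.0658 to 0.184 and that of Mylip from 0.0602 to 0.168. The differences themselves ran from 1.18 to 2.17 for Abca1 in Cdx2null SI SCs and, in control Sto SCs, from 1.76 to 2.02 for Abca1, 2.602 to 2.85 for Abcg1 and 1.82 to 2.24 for Mylip. All 4 calls were also lost with a replicate block. The adjusted p by limma was then 0.111 for Abca1 in Cdx2null SI SCs, and 0.0571 for Abca1, 0.0694 for Abcg1 and 0.0660 for Mylip in control Sto SCs. With all 14 arrays in the fit it was 0.333, 0.107, 0.166 and 0.172 in that order, and the calls were lost. They were lost with a sex term as well, where control SI SCs 2 is the only control SI SC array behind the contrast. The differences there were 1.49, 1.70, 2.41 and 1.97 in the same order.

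**Figure D5:**
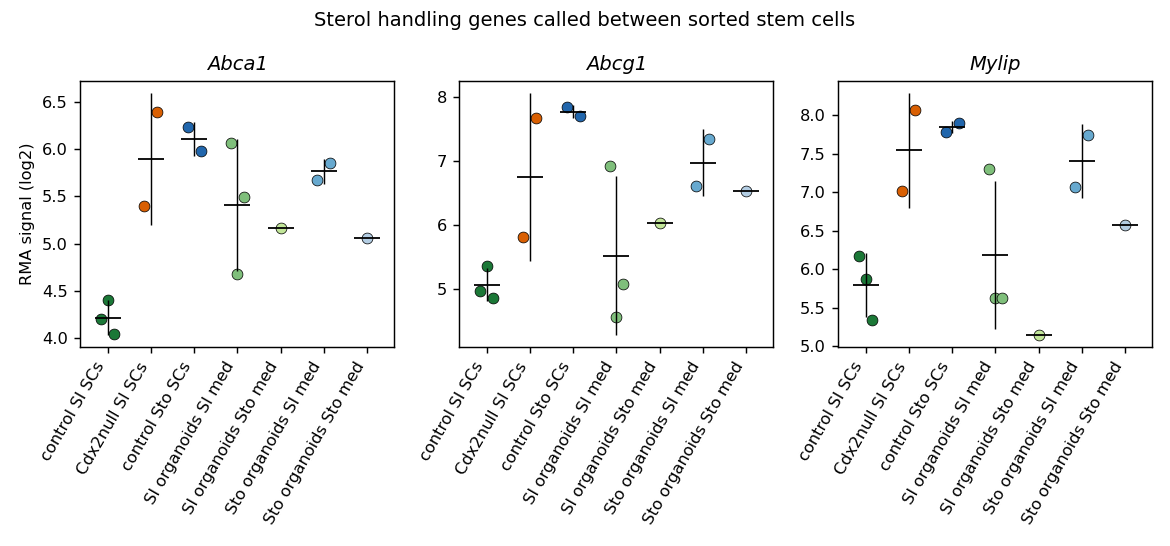
RMA signal (log2) of Abca1, Abcg1 and Mylip on every array by group. Points are arrays, horizontal bars group means and vertical bars the SD where a group has more than 1 array, and the axes do not start at 0. The Cdx2null SI SCs and control Sto SCs lie above the 3 control SI SCs for each gene.

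In the same comparisons 0 of 18 measured genes of fatty acid synthesis and activation and 0 of 8 of fatty acid oxidation and ketogenesis were called in either direction. Between sorted control SCs and organoids in SI med, 2 of 15 sterol handling genes and 2 of 18 fatty acid synthesis genes were called, against 3.99% of all genes. Acacb, the mitochondrial acetyl-CoA carboxylase, was higher in the SCs by 1.39 (SE 0.22, adjusted p 0.00566) and Cyp27a1, a sterol hydroxylase, by 1.25 (SE 0.31, adjusted p 0.0371). Lipa, the lysosomal lipase that frees cholesterol from its esters, was lower in the SCs, at -1.84 (SE 0.32, adjusted p 0.00824), as was Mid1ip1, an activator of acetyl-CoA carboxylase, at -1.08 (SE 0.23, adjusted p 0.0189). Lipa was at 6.71 to 7.57 on the 5 control SC arrays and at 7.47, 9.27 and 8.11 in SI organoids and 9.81 and 10.07 in Sto organoids in SI med, the lowest of which overlapped the SCs. Acacb was at 7.27 to 8.15 against 5.27 to 6.96, without overlap. In the remaining comparisons 0 genes of the 3 lists were called.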

How the data were processed

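Processed values of 14 mouse arrays were used. The deposited values are log2 signals after RMA (sketch) summarisation, per the labels and file headers, and 2 arrays hold the log2 of signals rounded to 1 decimal. Each gene was represented by its probe set of highest mean among 35556 probe sets, of which 21218 carried 1 gene symbol, giving 18820 genes. Idi1, Scap and Acaca had a second probe set. Groups were compared with limma 3.58.1 in R 4.3.3, with Benjamini-Hochberg adjustment over all genes, and a gene was called at an adjusted p under 0.05 with at least a 2-fold difference. Fits used the 7 SC arrays, the 7 organoid arrays (origin plus medium) or all 14 arrays (SCs against organoids, interaction), and were tested on simulated data. The 31 genes and the other lists were chosen with earlier results of these data known. Every-array values are given for genes with an adjusted p under 0.05 in any comparison and for the 3 largest rises and falls of each. Alternatives were other normalisation, filters, probe set rules, samples, a replicate block and a sex term.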

Additional observations from a re-analysis of the deposited data

How the results depend on the processing

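The number of the 31 genes called stayed at 0 in the Cdx2null, SC and medium comparisons under each alternative run. For Sto against SI organoids it was 0, and 3 with all 14 arrays in the fit. For sorted SCs against organoids in SI med it was 1, and 0 without the 2 arrays with rounded export, 0 with a sex term, 3 within stomach and 0 within small intestine, and leaving out single arrays gave 0 to 2. For the interaction of origin it was 0, and leaving out single arrays gave 0 to 1, while the Fads1 interaction became -0.00146 without Sto organoids in SI med 1 and 1.80 without Sto organoids in SI med 2. The number of all genes called moved more. For Cdx2null against control SI SCs it was 287, 4 with all 14 arrays, 0 with the methods' t-test (1264 at an unadjusted p under 0.05) and 131 to 320 without single arrays. For control Sto against SI SCs it was 538, 29 with all 14 arrays, 262 with a sex term, 160 to 445 without single arrays (160 without control Sto SCs 1) and 0 with the methods' t-test (2032 unadjusted). For Sto against SI organoids it was 0, and 371 without the library labelled SI organoids in SI med 1. Medium gave 0, and 235 with all 14 arrays. The cause was not tested.

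Nothing states that arrays with the same replicate number form pairs. Deviations of same-numbered arrays correlated between -0.19 and 0.40 over all groups and between 0.07 and 0.40 among sorted SCs. In a group of 2 arrays both deviate from their mean by equal and opposite amounts, so these values are not independent. Between control Sto SCs and Cdx2null SI SCs both replicate numbers thus gave the same value, 0.38, and the shared sign is fixed in part. A shared run of same-numbered sorted SCs was not tested, and the main fits have no term for it. With a replicate block, sorted SCs against organoids in SI med still had 1 of the 31 genes called, with 6 in place of 3 at an adjusted p under 0.05, and the other comparisons had 0 called. The sterol handling calls of Abca1, Abcg1 and Mylip in SCs were lost. All genes called with the replicate block were 228 for Cdx2null and 500 for control Sto SCs against control SI SCs. Groups of 1 to 3 arrays limit every value, and a lone array is assumed to vary like the other groups.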
